A study of Mus musculus with 30 samples.

Results

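At day 3 (d3) of an in vitro differentiation of mouse embryonic stem cells (ESCs) into neuromesodermal progenitors (NMPs), wildtype and knockout cells were compared gene by gene, with the genes of chromosome 8 kept apart from the rest. The comparison takes 6 of the 30 RNA-seq libraries of the series, 3 wildtype and 3 Nr6a1-/- (knockout), chosen by their labels. All cells derive from the Bruce4 ESC line, were grown in N2B27 medium with FGF2 from d0, and received the Wnt pathway agonist CHIR99021 from d2, so that at d3 both genotypes had been in CHIR for 24 h. The other 24 libraries are d2, d2.5 after 12 h in CHIR, d4 with continued CHIR, and d4 with Gdf11. They share the filter on low counts and the model, so the spread behind each d3 p-value is estimated from all 30 libraries. Their own values are given for d2.5 and d4 only, beside the d3 difference or in a check of index labels. The knockout carries deletions in the exon encoding the DNA-binding domain on both Nr6a1 alleles and comes from 1 ESC clone, so that genotype and clone cannot be told apart. ESCs had been kept on fibroblast feeders and were separated from them before differentiation. The labels do not say that the 3 libraries of a group are separate cultures, and p-values therefore measure the spread between libraries of a group, estimated over all groups.

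NMPs are bipotent cells at the posterior end of the elongating embryo, from which both spinal cord and paraxial mesoderm are made. They are recognised by joint expression of T (Brachyury) and Sox2, are held in place by Wnt and FGF signals, and read their position along the body axis from the Hox genes that Cdx factors help to open. Nr6a1, also known as germ cell nuclear factor, is an orphan nuclear receptor that represses Pou5f1 when epiblast cells leave pluripotency. The comparison asks which genes differ between Nr6a1-/- and wildtype cells once NMP markers are on.

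Libraries held 2081902 to 2618133 counts with 18693 to 19436 genes detected, and 3 counts, used here as the floor of detection, corresponded to 1.12 to 1.45 CPM (counts of a gene scaled to a common library total, computed over the tested genes with TMM factors). Mitochondrial transcripts took 3.38 to 3.98% of counts. The labels give knockout libraries 2 and 3 the same sequencing index as the d4 knockout libraries of the same number; the log2 CPM of those pairs correlated at 0.947 and 0.951, against 0.949 for number 1, whose index differs (Pearson's r across genes, which are not independent). The level of Nr6a1 was 178, 186 and 167 CPM in the wildtype libraries and 292, 256 and 314 CPM in the knockout libraries. The libraries count transcript 3′ ends, outside the deleted part, so these levels do not check the genotype. The transcript was 0.70 ± 0.11 higher on the log2 scale in knockout (SE, adjusted p = 1.74e-05). The markers that define the stage were present in both genotypes, with T at 309 and 504 CPM, Sox2 at 78.5 and 75.2 CPM, and Cdx2 at 94.0 and 115 CPM in wildtype and knockout means.

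Of 12149 genes tested, 1308 (10.8%) differed between genotypes at an adjusted p below 0.05, 543 higher (4.47%) and 765 lower (6.3%) in knockout. Without wildtype library 3 there were 876 calls, 720 of them off chromosome 8. Off chromosome 8, 1103 of 11490 genes (9.6%) were called, 538 higher (4.68%) and 565 lower (4.92%) in knockout. On chromosome 8, 205 of 659 genes (31.1%) were called, 5 higher (0.759%) and 200 lower (30.3%). Across other chromosomes the percentage called ran from 7.1 to 12.4. The 10.8% of all genes tested and the 9.6% off chromosome 8 are the shares beside which the counts of called list members below stand. Changes off chromosome 8 were mostly small, with a median absolute log2 fold change of 0.69 among calls, but they were less even at the extremes. At least 4-fold differences were found for 15 genes higher and 53 genes lower. The plot of level against fold change shows both features. For all genes tested, the 3 knockout libraries lay wholly above or below the 3 wildtype libraries for 28.5%, for 27.1% off chromosome 8 and for 52.5% on it.

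**Figure D1:**
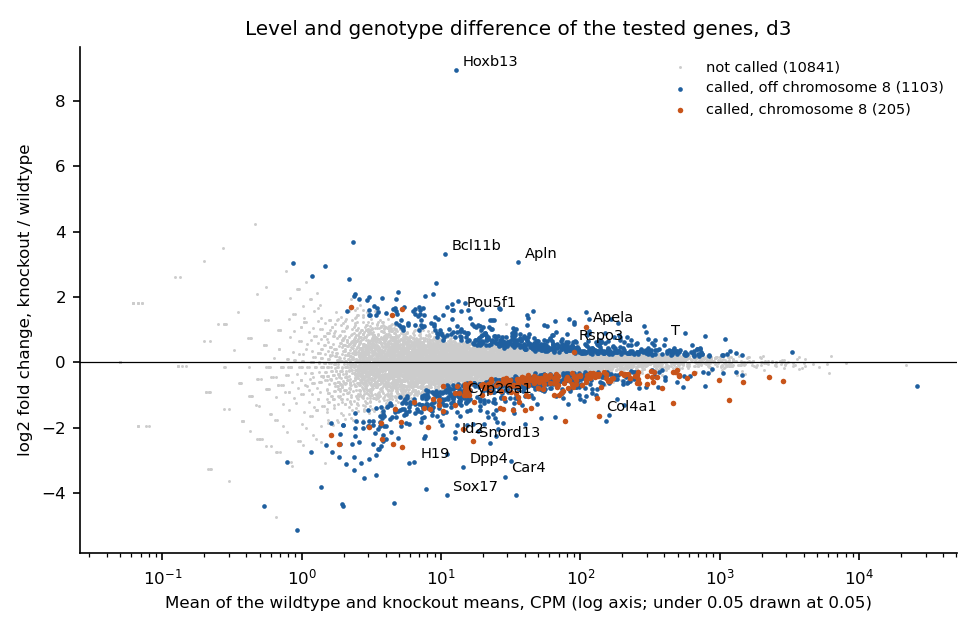
Each point is 1 of the 12149 genes tested at d3, placed by the mean of its wildtype and knockout means in CPM (horizontal, log axis) and by its log2 fold change, knockout over wildtype (vertical). Grey points were not called, blue points were called off chromosome 8 (1103) and orange points were called on chromosome 8 (205), of which 200 lie below 0.

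NMP markers were on balance higher in knockout. All 20 members of the list were tested, and 7 rose, 2 fell and 11 did not pass, with a median log2 fold change of 0.31 against 0.00240 over all genes. T, the T-box factor that marks NMPs and drives mesoderm formation, was at 318, 312 and 296 CPM in wildtype and at 471, 500 and 541 CPM in knockout. The groups did not overlap, and T rose by 0.71 ± 0.095 (log2 fold change ± SE, adjusted p = 1.37e-06). Nkx1-2, a homeobox gene of the NMP domain, rose by 0.77 ± 0.14 (adjusted p = 2.15e-04), and Cdx1 rose by 0.73 ± 0.11 (adjusted p = 1.03e-05). Grsf1, an RNA-binding protein gene, rose from 518 to 747 CPM. The Wnt ligand genes Wnt3a and Wnt8a rose by 0.91 ± 0.20 and 1.10 ± 0.255.

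Other NMP genes did not move with this group. Sox2 (log2 fold change -0.06 ± 0.14, adjusted p = 0.841) and Cdx4 (0.04 ± 0.10, adjusted p = 0.869) had overlapping libraries, and Cdx2 had an estimate of 0.28 ± 0.12 that did not pass (adjusted p = 0.121) although its libraries did not overlap. Cyp26a1, whose product degrades retinoic acid, fell from 18.8 ± 1.09 to 8.94 ± 1.11 CPM (SD, n = 3 each) and by 1.07 on the log2 scale. Fgf8, the FGF ligand of the tail end, was called lower at -0.44 ± 0.13, a call lost without wildtype library 1 (adjusted p = 0.111), knockout library 1 (adjusted p = 0.107) or knockout library 3 (adjusted p = 0.0611). Its call was also lost in counts thinned to the smallest library total (adjusted p = 0.135). Of the 9 calls in the list, 7 were made under every alternative setting.

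Presomitic mesoderm genes, which paraxial progenitors switch on next, also had more rises than falls. Of 21 listed genes 14 passed the filter on low counts, and among these 4 rose and 10 did not pass (median 0.47). Rspo3, a secreted amplifier of Wnt signals, was at 69.0, 72.7 and 72.0 CPM in wildtype and 108, 107 and 96.7 CPM in knockout. It rose by 0.54 ± 0.13 without overlap of libraries (adjusted p = 0.00503). Tbx6, the T-box factor that commits cells to paraxial mesoderm, rose from 12.97 ± 3.32 to 25.5 ± 5.79 CPM. Msgn1, its partner in that step, had 6 counts over the wildtype libraries and 26 over the knockout libraries and failed the filter. Pdgfra, a mesodermal receptor gene, had an estimate of -0.85 ± 0.32 that did not pass (adjusted p = 0.083) and did so only when knockout library 3 was left out (adjusted p = 0.0160).

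Neural progenitor genes were split. Of 24 listed genes 17 were tested, and 3 rose and 7 fell (median -0.41), of which 3 and 4 lie off chromosome 8. The genes that fell were low at this stage. Zic1, a zinc finger gene of the dorsal neural plate, was at 4.83, 5.98 and 8.0 CPM in wildtype and 0.803, 0.428 and 0.372 CPM in knockout, where every library was under the floor. Meis1, a Hox cofactor gene, fell by 3.54 ± 0.64 (adjusted p = 1.96e-04), with 2 of the 3 knockout libraries at 0. In contrast, Zic5, a gene of the same family as Zic1, rose from 12.8 ± 4.23 to 40.4 ± 7.31 CPM without overlap of libraries (1.64 ± 0.36, adjusted p = 0.00187). Sox1, a marker of committed neural cells that lies on chromosome 8, was at 2.41, 2.30 and 4.8 CPM in wildtype and under the floor in each knockout library, and its call was lost without wildtype library 3 (adjusted p = 0.0831). Of the 10 calls, 4 were made under every alternative, those on Zic1, Meis1 and Zic5 among them.

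**Figure D2:**
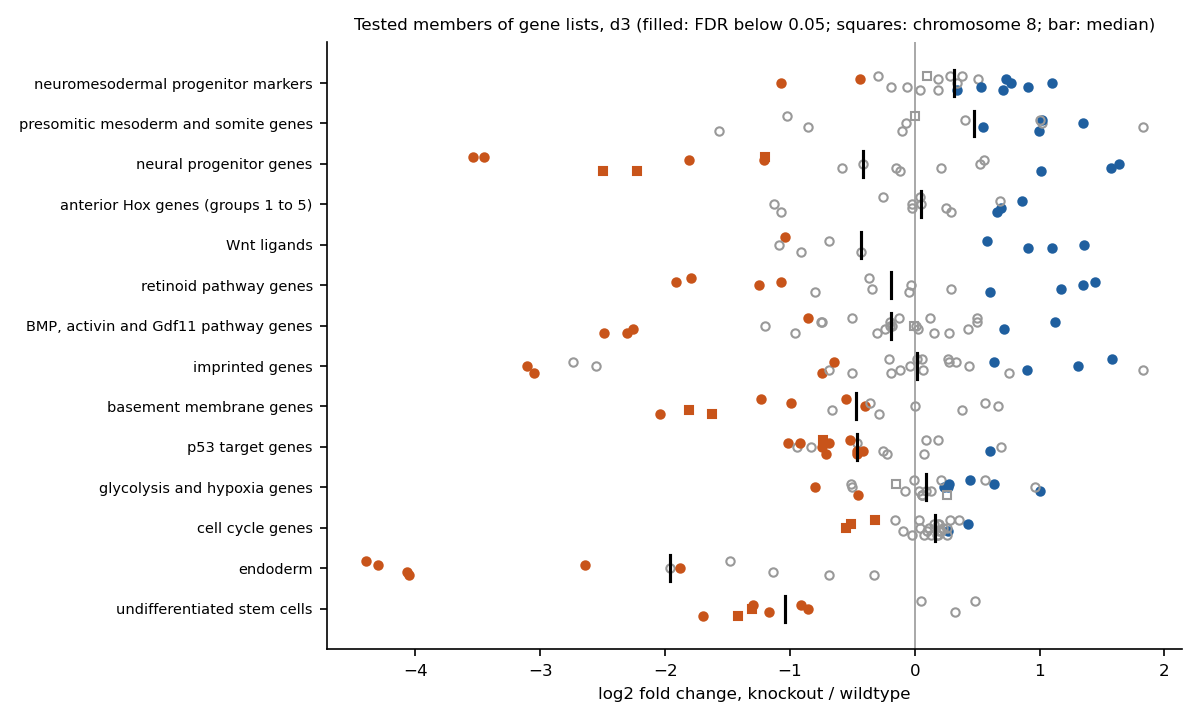
Each row is a gene list and each symbol a tested member, placed by its log2 fold change at d3, knockout over wildtype; filled symbols passed an adjusted p of 0.05 (blue higher, orange lower), squares lie on chromosome 8 and the black bar is the median. Endoderm markers lie wholly below 0 (median -1.96), while NMP markers have a median of 0.31.

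Wnt ligand genes changed in opposite directions. Of 19 genes 9 were tested, and 4 rose and 1 fell. Wnt5a, the main non-canonical ligand of the tail end, was at 15.4, 27.2 and 28.0 CPM in wildtype and 64.6, 52.2 and 65.8 CPM in knockout. The groups did not overlap (1.36 ± 0.19, adjusted p = 4.74e-06). Wnt5b rose by 0.58 ± 0.11, and Wnt6 fell from 54.3 ± 8.02 to 26.4 ± 1.94 CPM. Wnt6 is also one of the 2 tested markers of surface ectoderm, out of 10 listed. Their summed level, 49.6 to 65.7 CPM in wildtype and 28.5 to 32.1 CPM in knockout, includes Wnt6 and so is no separate measure. The other tested marker had an estimate of 0.48 and was not called. The part of surface ectoderm in the fall of Wnt6 was not tested. The median of the Wnt ligand list was -0.43, opposite in sign to most of its calls. Direct targets and feedback genes of the pathway showed less: of 17 tested, 3 were called higher (Cdx1, Sp5 and Lef1) and the median was -0.0386. Only the call on Cdx1 was made under every alternative. Sp5, a transcriptional target of Wnt, had a log2 fold change of 0.34 ± 0.091 that was lost without wildtype library 3 (adjusted p = 0.116) or knockout library 3 (adjusted p = 0.0621). Lef1, a nuclear effector, had 0.30 ± 0.10 at an adjusted p of 0.0485, and lost the call whichever of the 6 libraries was left out (adjusted p = 0.0660 to 0.156).

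Among the ERK pathway's feedback genes, 2 of 14 rose, and among the FGF ligand genes 1 of 9 tested was called (Fgf8, above). Etv4, a transcription factor induced by FGF signals, rose by 0.70 ± 0.14 (adjusted p = 6.88e-04), and Spred1, an inhibitor of the same cascade, by 0.64 ± 0.15 (adjusted p = 0.00321). Both percentages of calls, 14.3 and 11.1, were near the 9.6 found off chromosome 8.

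Of 14 retinoid genes tested, 8 were called (57.1%), all off chromosome 8 and all made under every alternative, with 4 higher and 4 lower. Crabp1, a cellular retinoic acid binding protein, was at 246, 234 and 228 CPM in wildtype and 71.5, 60.7 and 72.2 CPM in knockout. No library overlapped and Crabp1 fell by 1.79 ± 0.10 (adjusted p = 2.13e-15), the smallest adjusted p of the comparison together with Car4. Its paralog Crabp2 moved the other way, from 106 to 161 CPM (0.60 ± 0.12, adjusted p = 4.95e-04). Aldh1a2, the enzyme that makes retinoic acid in the trunk, rose from 9.19 ± 2.19 to 23.2 ± 5.13 CPM. Stra6, the cell surface receptor that takes up retinol, fell by 1.25 ± 0.19, and Stra8, named for its induction by retinoic acid, fell by 1.91 ± 0.32. Rxrg, a retinoid X receptor gene, rose by 1.44 ± 0.33.

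Of 26 BMP, activin and Gdf11 pathway genes tested, 2 rose and 4 fell (median -0.19). Fst, the activin and Gdf11 antagonist follistatin, was the most abundant of the called members, at 190.2, 175 and 172 CPM in wildtype and 366, 380.1 and 420.3 CPM in knockout. Its libraries did not overlap (1.12 ± 0.095, adjusted p = 7.89e-11). The Id genes, targets of BMP signals that block basic helix-loop-helix factors, parted: Id2 fell to 4.25 ± 0.505 CPM from 21.2 ± 1.21 CPM, whereas Id3 rose by 0.72 ± 0.15 (adjusted p = 0.00142). Msx2, a BMP target homeobox gene, fell by 2.49 ± 0.46. Gdf11, the ligand that ends trunk formation, had 44.4, 49.3 and 54.4 CPM in wildtype and 22.5, 29.1 and 36.4 CPM in knockout. These libraries did not overlap but the test was not passed (-0.75 ± 0.26, adjusted p = 0.0560); it was passed without knockout library 3 (adjusted p = 0.0401), in the 6 libraries alone (0.00148), with no filter (2.11e-04) and with the replicate block (0.0466). The lateral and cardiac mesoderm markers, of which 5 of 16 passed the filter and 3 were called lower, summed to 13.6 to 17.0 CPM in wildtype and 6.41 to 9.67 CPM in knockout, with Hand2, Gata5 and Kdr at 0 to 3 counts per genotype; their part in the falls of Msx2 was not tested.

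Of 15 Notch and segmentation clock genes tested, 2 rose and 1 fell, each under every alternative. That is 20%, against 9.6% of all genes tested off chromosome 8. Hes7, the oscillating repressor of the presomitic clock, rose from 31.0 ± 5.29 to 53.5 ± 7.41 CPM without overlap of libraries (0.79 ± 0.16, adjusted p = 7.05e-04). Dll3, a clock-associated Notch ligand, rose by 0.69 ± 0.16. Hes1, a Notch target in neural and mesodermal cells, fell from 196 ± 10.7 to 127 ± 5.66 CPM.

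Of 13 anterior Hox genes (groups 1 to 5) tested, 3 were called higher and 10 did not pass. Hoxa2 (0.86, adjusted p = 0.0319) lost its call in 8 of 15 alternatives, among them without wildtype libraries 1, 2 or 3 (adjusted p = 0.136, 0.0594 and 0.0596) or knockout libraries 2 or 3 (adjusted p = 0.107 and 0.0851). Hoxb1 was at 137, 153 and 150.4 CPM in wildtype and 228, 248 and 233 CPM in knockout (0.69 ± 0.10, adjusted p = 9.74e-06, no overlap). Of 11 trunk genes (groups 6 to 9), 2 rose and 4 fell. HoxB members Hoxb7 and Hoxb8 rose by 0.76 and 0.81, and HoxA and HoxC members Hoxa7, Hoxa9, Hoxc8 and Hoxc9 fell by 1.37 to 1.52. Genes not called included Hoxb6 (23.3 and 20.5 CPM in wildtype and knockout), Hoxb9 (0.19, adjusted p = 0.559) and Hoxc6 (-1.01, adjusted p = 0.0607). Whether the clusters differ was not tested. Hoxb7 lost its call without knockout library 1 (adjusted p = 0.0550). Hoxa9 lost it without wildtype library 3 (adjusted p = 0.0728) or knockout library 2 (adjusted p = 0.0735), and in thinned counts (adjusted p = 0.0597). Of 10 posterior genes, 2 were called. Hoxb13 had no count in any wildtype library and 193 counts over the knockout libraries. Hoxc13 had 30 and 8 counts and was called lower (-2.01 ± 0.51, adjusted p = 0.00741), a call lost without wildtype library 2 (adjusted p = 0.0534). That call was also lost in thinned counts (-1.30, adjusted p = 0.154). The other 8 held at most 18 counts over the libraries of a genotype.

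Of 20 pluripotency and epiblast genes tested, all off chromosome 8, 1 was called higher and 2 lower (median 0.11). That is 15%, against 9.6% of all genes tested off chromosome 8. Pou5f1, the pluripotency factor repressed by Nr6a1, was at 7.72, 7.83 and 5.60 CPM in wildtype and 20.5, 19.7 and 21.9 CPM in knockout. Dppa4 and Dppa5a, which mark pluripotent cells, fell by 1.06 ± 0.18 and 0.95 ± 0.12. The list of undifferentiated stem cell markers (Zfp42, Tbx3 and others) had 7 of 10 tested called lower (median -1.04) and a summed level of 238 to 269 CPM in wildtype and 164 to 212 CPM in knockout. Tbx3 fell by 1.70 ± 0.225 and Zfp42, on chromosome 8, by 1.42 ± 0.275, and these were the calls of that list made under every alternative.

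Nr6a1 binds as a dimer to the letters AGGTCA repeated directly, without a spacer, or to the extended site TCAAGGTCA, which every such repeat contains. RefSeq promoters (GRCm38.p6, 250 bases before to 50 after the start) were searched on both strands for these letters, to see whether called genes carry them. The repeat was in 1 of 27025 genes' promoters and in none of the 8800 tested genes matched. The extended site was in 0.466% of all promoters, 0.261% of those tested, 0.505% of 396 called higher and 0.176% of 568 called lower, that is 2 and 1 genes. Of the 32 genes named for their size of change and Pou5f1, 20 had a promoter in the table and none held either motif. Pou5f1 instead holds a diverged form, AGGTCA followed directly by AGGCTA, found in 0.0074% of promoters; it was searched for after the promoter had been seen. The matches in called genes are given here on the gene's own strand, with the matched letters in capitals (for Polk the reverse complement of the extended site).
Pou5f1, chr17:35505990-35506019, plus strand, motif starting at position -33: cggggccagAGGTCAAGGCTAgagggtggg
Msrb2, chr2:19371508-19371534, plus strand, motif starting at position -119: ccgcgaagaTCAAGGTCAagaggagca
Timm8b, chr9:50603796-50603822, plus strand, motif starting at position -96: ttcgagggcTCAAGGTCActctacaac
Polk, chr13:96519368-96519394, minus strand, motif starting at position -198: agctgaagaTGACCTTGAactcctgat
Msrb2, a methionine sulfoxide reductase gene, rose by 1.17 ± 0.22 (adjusted p = 2.84e-04), Timm8b, a mitochondrial import gene, by 0.35 ± 0.11 (adjusted p = 0.0355), and Polk, a translesion polymerase gene, fell by 0.92 ± 0.19 (adjusted p = 0.00108). Msrb2 and Timm8b were picked for their motif after their values had been seen. A match describes letters only, and other windows were not searched.

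Genes described for their size of change, here and for the rises, were taken among those whose libraries do not overlap, so that separation is no result for them. Among the genes within these limits, 2 endoderm genes fell furthest off chromosome 8. They were the secreted inhibitor Spink1 (65.6 ± 4.17 to 3.91 ± 1.11 CPM, -4.07 ± 0.29) and the transcription factor Sox17 (20.7 ± 0.904 to 1.25 ± 1.16 CPM, -4.05 ± 0.46). Some called genes outside these limits had larger falls, Ttr (-4.30) among them. Car4, a membrane-bound carbonic anhydrase, was at 56.0, 51.6 and 51.6 CPM in wildtype and 5.62, 4.28 and 4.09 CPM in knockout. Car4 fell by 3.49 ± 0.20 (adjusted p = 2.13e-15). S100g, a small calcium-binding protein, fell from 56.3 ± 3.11 to 6.83 ± 2.63 CPM. Dpp4, a cell surface dipeptidyl peptidase, was at 28.5, 25.3 and 24.4 CPM against 3.61, 1.71 and 2.98 CPM (-3.20 ± 0.25, adjusted p = 8.04e-12). Dab2, an endocytic adaptor, was at 37.7, 42.4 and 34.8 CPM in wildtype and 8.03, 7.27 and 5.58 CPM in knockout (-2.45 ± 0.24). Epas1, the hypoxia factor HIF-2α, fell by 2.31 ± 0.44, Clic6, a chloride channel family gene, by 3.09 ± 0.52, and Lix1 by 2.80 ± 0.42. Zbtb16, a zinc finger repressor, had 98 counts over the wildtype libraries and 7 over the knockout libraries, with knockout library 3 at 0.

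**Figure D3:**
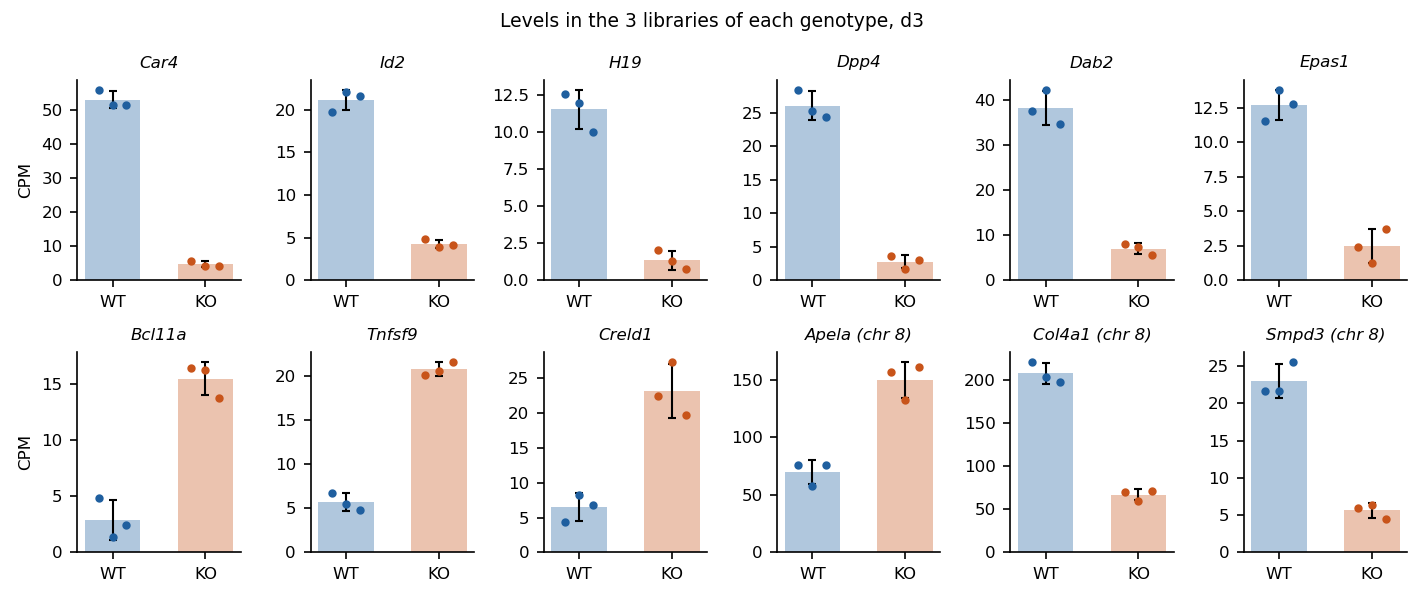
Levels in CPM of 12 genes at d3; points are the 3 libraries of each genotype, bars their means and error bars the SD (n = 3), and each panel has its own vertical axis starting at 0. The genes were chosen among those whose libraries do not overlap, so the panels show the size of the differences and the spread, as for Car4 with 51.6 to 56.0 CPM against 4.09 to 5.62 CPM.

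Endoderm markers, of a lineage that NMP cultures can contain, were also lower. Spink1 and Sox17, with means of 65.6 and 20.7 CPM in wildtype and 3.91 and 1.25 CPM in knockout, belong to this list. Their falls are therefore part of its counts and sums. Of 16 markers 11 were tested, all had estimates below 0 (median -1.96), and 6 were called lower under every alternative, none of them on chromosome 8. Their summed level was 186, 186 and 202 CPM in wildtype and 37.3, 42.8 and 29.8 CPM in knockout. Trh, the most abundant called member after Spink1, fell from 62.9 ± 4.66 to 17.1 ± 0.61 CPM, and Ttr, the thyroid hormone carrier of visceral endoderm, from 8.77 ± 2.99 to 0.402 ± 0.70 CPM. Foxa1, Cer1, Afp and Cldn8 had no count in either genotype, and Apoa1 had 31 counts over the wildtype libraries and 6 over the knockout libraries. The part of the marker levels in the falls of Car4, Dpp4, Dab2, Epas1, Krt8, Krt18, Cldn4 and the basement membrane genes was not tested; in bulk RNA, fewer cells of a type and less RNA per cell cannot be told apart.

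Basement membrane genes, whose products assemble into the sheet under epithelia, were divided between lower and not called. Of 14 tested, 7 were called lower, 5 of them off chromosome 8, 7 did not pass, 3 had estimates above 0 (up to 0.67), and the summed level was 733 to 805 CPM in wildtype and 421 to 473 CPM in knockout. Lama1, the α1 chain of laminin-111, was at 43.0, 42.8 and 38.0 CPM in wildtype and 7.23, 8.55 and 13.8 CPM in knockout (-2.04 ± 0.19, adjusted p = 7.07e-10, no overlap). Col4a1 and Col4a2, the α1 and α2 chains of type IV collagen, lie head to head on chromosome 8 with RefSeq start sites 21 bases apart on opposite strands. Col4a1 was at 221, 203 and 198 CPM in wildtype and 69.5, 59.9 and 71.4 CPM in knockout (-1.63 ± 0.13), and Col4a2 fell by 1.81 ± 0.16 (adjusted p = 2.35e-10). These 3 genes kept their calls under every alternative. The laminin chain genes Lamb1, Lamb2 and Lamc1 and the nidogen gene Nid1 had smaller estimates of -0.39 to -1.23, and each lost its call under at least 1 alternative. Lamb1 lost it without knockout library 1 (adjusted p = 0.0665) and in thinned counts (adjusted p = 0.0683). Lamc1 lost it without wildtype libraries 1, 2 or 3 (adjusted p = 0.185, 0.0542 and 0.0635) and knockout libraries 2 or 3 (adjusted p = 0.181 and 0.0878). Lamb2 lost it without wildtype libraries 1, 2 or 3 (adjusted p = 0.0920, 0.0649 and 0.0875) and knockout libraries 1 or 2 (adjusted p = 0.162 and 0.1001).

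Epithelial keratin genes fell beside the endoderm markers, whose summed level was 186 to 202 CPM in wildtype and 29.8 to 42.8 CPM in knockout. Krt18 was at 137, 145 and 128 CPM in wildtype and 65.0, 64.6 and 57.6 CPM in knockout (-1.13 ± 0.105, adjusted p = 6.33e-10), and its filament partner Krt8 fell by 0.82 ± 0.13. Cldn4, a tight junction claudin, fell by 0.91 ± 0.18. Vim, the mesenchymal filament gene vimentin, rose from 143 ± 7.84 to 199.6 ± 20.4 CPM. In all 1 of 22 cadherin and epithelial-mesenchymal genes rose and 5 fell, 4 of the latter off chromosome 8. That is 27.3% called, against 10.8% of all genes tested.

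The genes that rose furthest off chromosome 8 came from several families. Bcl11b and Bcl11a, paired zinc finger transcription factors of lymphoid and neural cells, both rose: Bcl11a was at 4.83, 1.38 and 2.40 CPM in wildtype and 16.5, 16.2 and 13.8 CPM in knockout (2.43 ± 0.45, adjusted p = 2.37e-04). Tnfsf9, a tumour necrosis factor family ligand, was at 6.76, 5.52 and 4.8 CPM against 20.1, 20.5 and 21.6 CPM (1.87 ± 0.29, adjusted p = 1.63e-05). Creld1, an endoplasmic reticulum protein gene, rose from 6.48 ± 1.99 to 23.2 ± 3.88 CPM, Smim10l2a from 12.6 ± 2.26 to 39.7 ± 3.44 CPM, and Gstk1, a glutathione transferase, from 5.09 ± 1.53 to 17.1 ± 4.19 CPM. Galnt17, Btla, Plcxd1 and Jam2, an enzyme of glycosylation, an immune receptor, a phospholipase domain gene and a junction molecule, rose by 1.70 to 2.09 on the log2 scale. The 12 rises and 12 falls off chromosome 8 chosen for their size of change passed under every alternative.

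Apelin signalling genes rose at ligand and receptor level. Apln, a ligand of the apelin receptor, was at 9.17, 8.29 and 5.60 CPM in wildtype and 59.4, 61.1 and 71.8 CPM in knockout. Apela, the second ligand of that receptor, was at 76.3, 58.0 and 76.0 CPM in wildtype and 157, 132 and 161 CPM in knockout (1.10 ± 0.17, adjusted p = 1.39e-05). Aplnr, the receptor, had a rise of 0.87 ± 0.25 whose call was lost without wildtype library 2 (adjusted p = 0.0635) or 3 (adjusted p = 0.0827) and without knockout library 2 (adjusted p = 0.0549) or 3 (adjusted p = 0.0630). The call on Aplnr was also lost in thinned counts (adjusted p = 0.0775). The other 3 genes of the list, Cxcl12 and its receptors, did not pass.

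Of 25 imprinted genes tested, 4 rose and 4 fell. That is 32%, against 9.6% of all genes tested off chromosome 8. Peg3, a paternally expressed zinc finger gene, was at 379.9, 412 and 389 CPM in wildtype and 725, 804 and 674 CPM in knockout (0.90 ± 0.094, adjusted p = 9.61e-09), and its neighbour Usp29 rose by 1.30 ± 0.22. H19, a maternally expressed RNA, was at 12.6, 12.0 and 10 CPM against 2.01, 1.28 and 0.744 CPM (-3.05 ± 0.35). Phlda2 rose by 0.64 ± 0.11 and Impact fell by 0.65 ± 0.12. The libraries of Peg3, Usp29, Phlda2 and Impact did not overlap.

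Genes activated by p53 were mostly lower: of 20 tested, 10 fell and 1 rose (median -0.46), 9 of the 10 off chromosome 8. Ccng1 was at 348, 367 and 400.0 CPM in wildtype and 229, 243 and 193 CPM in knockout (-0.75 ± 0.084, adjusted p = 4.09e-08, no overlap), and Trp53inp1, a regulator of cell death and autophagy, fell from 147 ± 13.7 to 72.2 ± 8.28 CPM. Perp, Btg2 and Bbc3 fell by 0.69, 0.46 and 0.71. Cdkn1a, the cell cycle inhibitor most used as a readout of p53, had overlapping libraries (0.07 ± 0.089, adjusted p = 0.700), and Pmaip1, a cell death gene, rose by 0.60 ± 0.15. Of the 11 calls, 8 were made under every alternative.

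Of 23 glycolysis and hypoxia genes tested, 8 were called (34.8%), 6 higher and 2 lower, and the summed level of the list was 5062 to 5438 CPM in wildtype and 5952 to 6349.5 CPM in knockout. The glycolytic enzyme genes Hk2, Ldha and Pkm rose by 0.64 ± 0.094, 0.44 ± 0.090 and 0.27 ± 0.065 under every alternative; the other 5 calls were each lost under at least 1. Of 26 cell cycle genes, 19.2% were called, against 10.8% of all genes tested. Among them 2 were called higher, and the 3 called lower (Mcm5, Cdt1 and Gins2) all lie on chromosome 8. Of these, Cdt1 fell under every alternative (-0.55 ± 0.12), Mcm5 lost its call without wildtype library 1 (adjusted p = 0.102) or knockout library 1 (adjusted p = 0.160), and Gins2 without knockout library 2 (adjusted p = 0.110). Of 23 sterol and fatty acid synthesis genes (17.4% called), 2 rose and 2 fell, Msmo1 on chromosome 8 among the latter. Of 22 DNA methylation and Polycomb genes, 1 was called. Of 8 heterochronic genes, 25% were called. Lin28a rose by 0.37 ± 0.088 and Hmga2 was called lower (-0.46 ± 0.145), a call lost in 6 of 15 alternatives. These included the fits without wildtype libraries 1 or 2 (adjusted p = 0.1004 and 0.113) or knockout libraries 1 or 2 (adjusted p = 0.1252 and 0.115). Of 15 nuclear receptor genes other than Nr6a1 (26.7% called), 1 was called higher and 3 lower. Among the latter Nr3c1, the glucocorticoid receptor, fell from 24.6 ± 4.67 to 11.8 ± 1.17 CPM, a call made under every alternative. Differentiated neuron markers had 1 rise and 1 fall among 8 tested, and a summed level of 244 to 261 CPM in wildtype and 252 to 267 CPM in knockout. Feeder fibroblast markers had 1 of each among 6 tested of 12, with 63.6 to 68.1 CPM in wildtype and 69.9 to 94.5 CPM in knockout.

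Chromosome 8 stood apart as a whole. Of its 659 tested genes, 565 were below 0, 85.7%, and the median log2 fold change was -0.37, or 0.774-fold, with quartiles of -0.61 and -0.13. Medians of the other chromosomes lay between -0.0115 and 0.0723, and their percentage of genes below 0 between 39.8 and 51.5. The fall ran along the chromosome: in each of 10 consecutive groups of 65 or 66 genes, from 3122061 to 129282844 (mm10), the median was between -0.22 and -0.43 and 75.8 to 95.5% of genes were lower. Medians were -0.37, -0.38 and -0.35 in the lower, middle and upper part of the genes by CPM. Of all counts of a library, the tested genes of chromosome 8 took 5.30, 5.30 and 5.25% in wildtype and 4.09, 4.09 and 4.08% in knockout. The difference was -1.20 percentage points (exact two-sided permutation p = 0.1, the smallest that 3 against 3 allows). Genomic copy number was not analysed here.

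**Figure D4:**
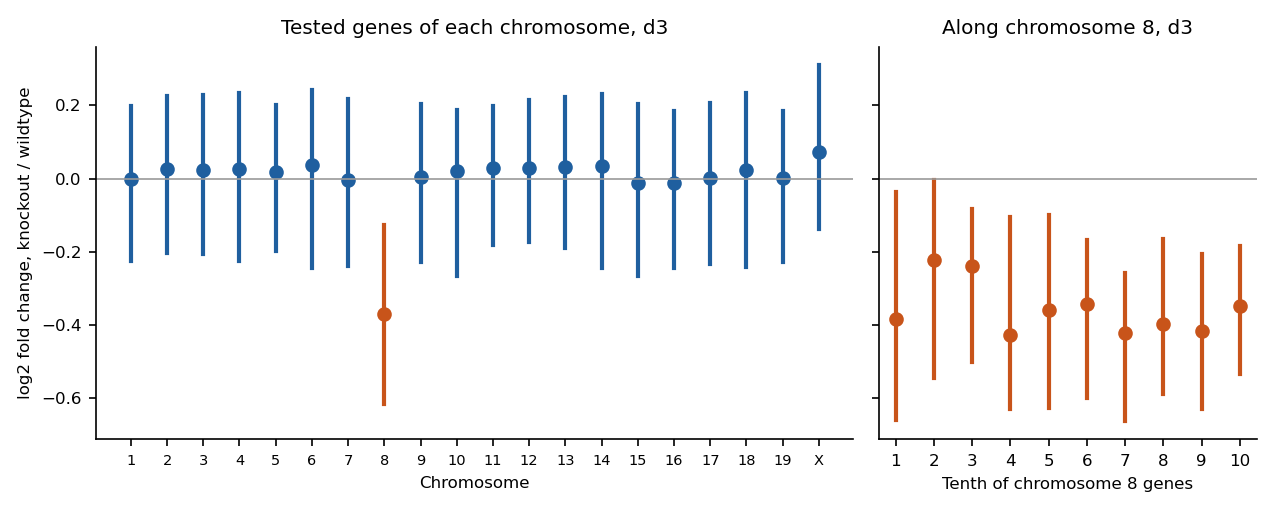
Median (point) and quartiles (line) of the log2 fold change at d3, knockout over wildtype, for the tested genes of each chromosome (left) and for 10 consecutive groups of 65 or 66 genes along chromosome 8 (right). Chromosome 8, in orange, has a median of -0.37, whereas other chromosomes lie between -0.0115 and 0.0723, and each group along it has a median below 0.

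Measured against the median of the chromosome rather than 0, 86 of the 659 genes were called, 43 lower and 43 higher, and 48 of these had also been called against 0. The median was taken from these same genes and lies below 0, so a call against 0 is no separate result for genes falling further. All 43 that fell further than the chromosome had that call. They included the collagen pair, Smpd3, a neutral sphingomyelinase (21.7, 21.6 and 25.6 CPM against 6.02, 6.41 and 4.46 CPM, -2.03 ± 0.26 against 0 and -1.67 against the chromosome), Snord13, a small nucleolar RNA (39.1, 24.4 and 22.4 CPM against 4.82, 6.84 and 4.46 CPM, -2.40 and -2.03), and Nrg1, a growth factor gene (6.76 to 18.0 CPM against 1.12 to 5.56 CPM, -1.99 and -1.62). Got1l1 had -1.48 against 0 and -1.11 against the chromosome. The metallothionein genes Mt1 and Mt2, singled out after their values had been seen, fell by 1.14 ± 0.096 and 1.25 ± 0.12 against 0, to 735 ± 38.6 and 273 ± 18.05 CPM.

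On chromosome 8, 5 genes were called higher, 0.759% of those tested. The number was 3 without wildtype library 3, 2 without any other of the 6 libraries, 2 with DESeq2 and 1 in thinned counts. Apela, described above, is one of them. Cks1brt rose by 0.32 ± 0.10 (adjusted p = 0.0379), a call lost in 9 of 15 alternatives, among them without wildtype libraries 2 or 3 (adjusted p = 0.124 and 0.163) and knockout libraries 1 or 2 (adjusted p = 0.127 and 0.0916). Psd3, Dpep2 and Gm45251, named because they complete the count, had wildtype means of 2.57, 1.01 and 2.42 CPM and log2 fold changes of 1.64, 1.69 and 1.44.

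The d3 difference was then set against those 12 h earlier and 24 h later. These comparisons share the d3 libraries. At d2.5, 784 of the 12149 genes (6.45%) differed between genotypes and at d4, 2294 (18.9%). The genotype difference itself changed between d2.5 and d3 for 99 genes (0.815%), 45 upwards and 54 downwards, and between d3 and d4 for 695 genes (5.72%), 361 upwards and 334 downwards. Chromosome 8 held 5 of the 99 and 37 of the 695. Of the 1308 genes called at d3, 72 were among the first set and 250 among the second. The 99 became 48 without wildtype library 3, and 63 and 64 without knockout libraries 1 and 2. The d4 wildtype libraries were uneven for some epiblast genes, with Dnmt3b at 218 ± 257 CPM and Utf1 at 41.8 ± 50.8 CPM (SD, n = 3). Other genes were even in that group, as H19 at 109.9 ± 7.11 CPM. Only d3 libraries were left out in turn, so the weight of single d4 libraries was not tested.

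Several of the largest d3 differences did not pass at d2.5. Id2 had means of 14.5 ± 1.29 CPM in wildtype and 11.8 ± 3.04 CPM in knockout at d2.5, at 21.2 ± 1.21 and 4.25 ± 0.505 CPM at d3, and at 61.7 ± 5.87 and 64.6 ± 11.4 CPM at d4 (SD, n = 3 each). Its difference changed from d2.5 to d3 (adjusted p = 6.56e-04) and back from d3 to d4 (adjusted p = 3.26e-07). Lix1 went from -0.08 at d2.5 to -2.80 at d3 and part of the way back, to -1.03, at d4 (adjusted p = 0.00752 and 0.0416). Smim10l2a and Btla also gained their rise between d2.5 and d3 (adjusted p = 0.00318 and 0.0224).

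Other differences widened. Car4 had log2 fold changes of -0.82, -3.49 and -6.11 at d2.5, d3 and d4, its knockout mean going from 28.5 to 4.66 to 1.38 CPM while wildtype means were 50.2, 53.1 and 95.8 CPM. Both steps passed (adjusted p = 3.34e-08 and 1.34e-04). H19 reached 109.9 ± 7.11 CPM in wildtype at d4 and stayed at 1.61 ± 0.591 CPM in knockout (d4 against d3, adjusted p = 0.00244). Aldh1a2 went on to 376 ± 8.49 CPM in knockout against 12.0 ± 0.815 CPM in wildtype (adjusted p = 2.94e-09 for the change from d3).

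A further set of d3 differences was reversed or gone a day later. Wnt6, lower in knockout at d3, was higher at d4 (log2 fold change 1.35; adjusted p for the change = 1.44e-08). Crabp1 went from -1.79 to 0.33 (adjusted p = 6.76e-14) and Stra6 from -1.25 to 0.78 (adjusted p = 1.76e-07). Apela went from 1.10 to -1.07 (adjusted p = 1.90e-05) while its level dropped to 21.0 ± 8.68 CPM in wildtype and 10.1 ± 4.28 CPM in knockout. No change of the genotype difference passed in either step for T, Cdx1, Lin28a, Hoxa7 or the collagen pair.

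**Figure D5:**
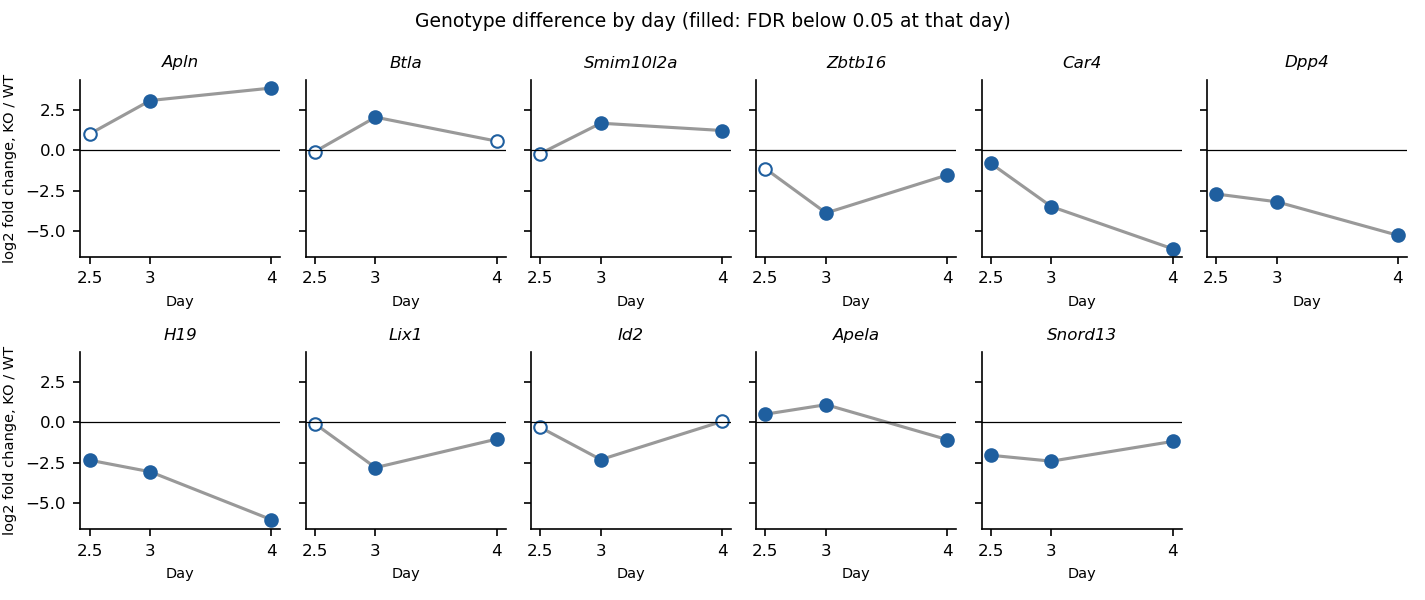
Log2 fold change, knockout over wildtype, at d2.5, d3 and d4 for the 11 genes named for their size of change whose difference changed between d2.5 and d3 or between d3 and d4; filled points passed an adjusted p of 0.05 at that day. Id2, Lix1, Zbtb16 and Snord13 are lowest at d3, whereas Car4 falls at each step, from -0.82 to -6.11.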

How the data were processed

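The table deposited by the authors holds whole-number read counts per gene; per the labels' processing notes reads were aligned with STAR to mm10, while versions, annotation, counter, strand and use of the molecular identifiers are not given in the sources used here. Libraries were made by an in-house method with the index added at poly(A) priming. The authors' own comparison tables (log2 fold change, FDR and CPM per gene) were not used. Gene positions came from GENCODE M21 (GRCm38, the mm10 assembly) by symbol, which placed 99.6% of tested genes. Rows entered the test if 2 or more libraries of some group (of 10) exceeded both 10 counts and 2 CPM (12149 of 54134, 99.2 to 99.3% of d3 counts). One model over all 30 libraries (20 residual degrees of freedom) was fitted with the quasi-likelihood F-test of edgeR 4.0.16 (R 4.3.3; TMM factors, prior count 0.125), with p-values adjusted by Benjamini-Hochberg over all tested genes; called means an adjusted p below 0.05. Changes of the genotype difference between days were contrasts in that model. Within groups, replicate libraries differed by 1.46 to 3.55 chi-square units per gene, above sampling noise, and between genotypes by 5.02 to 6.60. Genes named were the 12 largest rises and falls off chromosome 8, the 6 largest falls and up to 6 largest rises on it (mean of at least 10 CPM in 1 genotype, libraries not overlapping), and list members. The members and lists were chosen with earlier results of these data known. Alternatives were RLE factors, no factors, TMM without chromosome 8, no filter, filterByExpr, the 6 libraries alone, DESeq2 1.42.0, thinned counts and a replicate block. Further alternatives left out each of the 6 d3 libraries in turn. The scripts were tested on simulated data. Counting error only is covered by the detection floor. A few genes are not reported here.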

Additional observations from a re-analysis of the deposited data

Results flagged for a closer look

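Of the 32 genes named for their size of change, 11 had a genotype difference that changed between days by the contrast of the edgeR model (difference of log2 fold changes, adjusted p below 0.05). Between d2.5 and d3, 6 did: Apln by 2.07, Btla by 2.13 and Smim10l2a by 1.89 upwards, and Car4 by -2.68, Lix1 by -2.72 and Id2 by -2.0 downwards. Between d3 and d4, 8 did. Car4 changed by -2.61, Dpp4 by -2.08, H19 by -2.97 and Apela by -2.16, whereas Zbtb16 (2.35), Lix1 (1.77), Id2 (2.36) and Snord13 (1.22) moved back towards the wildtype level. Over all genes 0.815% and 5.72% were called in these contrasts. Id2 and Lix1 were called in both steps in opposite directions, and Car4 in both steps in the same direction. With 3 libraries a group, no search for single outlying libraries was made.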

How the results depend on the processing

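Of 159 called genes that were named for size or listed, 107 kept direction and call under every alternative that could be fitted; 52 lost it under at least 1, and of the 32 named for size only Cks1brt did. Direction turned only for Sox2 and Cdx4, both uncalled, without knockout library 1; with 1 library left out they ran from -0.123 to 0.0132 and from -0.0695 to 0.124. The 1308 calls became 1290 with RLE factors, 1039 with DESeq2, 967 in thinned counts, 1417 in the 6 libraries alone and 876 to 1085 with 1 library left out (720 to 918 off chromosome 8, 150 to 170 on it). Calls off chromosome 8 dropped by more than 1.5 times only without wildtype library 3 (720). Higher genes were 45 to 52.3% of calls off chromosome 8. The chromosome 8 median of -0.37 stayed between -0.35 and -0.39, except that it was -0.13 with no filter, where 31959 genes are tested. Against that median 86 chromosome 8 genes were called. Changes from d2.5 to d3, 99 in all, were 359 with no filter and 48 (without wildtype library 3) to 92 with 1 library left out; those from d3 to d4 were 478 to 745. Deviations of same-numbered libraries correlated at 0.218, 0.00270 and 0.346, and those of different-numbered libraries at -0.423 to 0.287. So few correlations cannot decide whether replicate numbers pair the samples. With the number as a replicate block 1133 genes were called, 1100 of them shared with the 1308. Depth limits genes under about 1.45 CPM.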
